A study of Mus musculus with 11 samples.

Results

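*Mamld1*, 3 other genes of the Mastermind family (*Maml1*, *Maml2*, and *Maml3*) and the partners *Rbpj*, *Ep300*, and *Crebbp* were followed in mouse Leydig tumor cells (MLTCs) after *Mamld1* knockdown. The members were all array probes whose RefSeq accession maps to one of these 7 genes. Of 41174 probes on the array, 7 met this rule and covered 6 of the 7 genes, since no probe matched *Maml2*. Of these 7 probes, 5 were well above background on all 11 arrays and were tested. The *Crebbp* and *Maml3* probes are given by value only.

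The MLTCs, a single established line of Leydig tumor cells (ATCC CRL-2065), were transfected by Lipofectamine RNAiMAX with 1 of 3 RNAs at 20 nM and incubated for 48 hours. Non-targeted MLTCs received non-targeting control RNA (4611G; 4 arrays), and the other cells received siRNA1 (4 arrays) or siRNA2 (3 arrays), 2 different duplexes against *Mamld1*. The methods place the harvest 1 hour after hCG was added, whereas the sample labels do not name hCG. The methods also speak of triplicate hybridization, which differs from the 4, 4, and 3 arrays of the labels, and neither source says that arrays of a group came from separate cultures, so p-values measure the spread between these samples, which may be technical.

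Mastermind proteins are coactivators that have no DNA-binding domain of their own. In the Notch pathway, a ligand on one cell leads to cleavage of the Notch receptor on its neighbor, and the released intracellular domain enters the nucleus and joins RBPJ, the DNA-binding factor of the pathway. MAML1, MAML2, and MAML3 bind this complex and recruit the histone acetyltransferases p300 (*Ep300*) and CBP (*Crebbp*), while without the intracellular domain RBPJ associates with corepressors. *Mamld1* encodes a protein with a Mastermind-like domain, and damage to the human gene leads to hypospadias, in which the urethra opens on the underside of the penis.

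Each of the 3 slides carried arrays of every group, 11 in all. The 75th percentile of the signal intensity was 470–582 (control), 601–774 (siRNA1), and 488–579 (siRNA2), and each array was divided by it. All 7 Leydig cell markers examined, such as *Cyp17a1* and *Star*, were well above background on every array, with a summed level of 85.8–112% (control), 78.1–90.2% (siRNA1), and 92.8–112% (siRNA2) of control. Single markers spread more widely, with *Cyp17a1* at 52.8% (siRNA1) and 72.2% (siRNA2) of control and *Insl3* at 129.5% and 180.2%. Of 6 Sertoli markers, *Amh*, *Dhh*, and *Clu* were also above background on all arrays, with *Clu* at 22753–43425 intensity units. So were *Prm1*, *Tnp1*, and *Sycp3* of 5 germ cell markers, 1 of 4 macrophage markers, and 2 of 4 peritubular myoid and fibroblast markers. Of 4 endothelial markers, *Cdh5* was above background on all arrays and set a summed level of 189–261% (siRNA1) and 165–200.2% (siRNA2) of control, above every control array, while *Tek* and *Kdr* were above background on 0 arrays and *Pecam1* on 3. Its part in the results below was not tested, and in bulk RNA a smaller share of cells with a transcript and less of it per cell cannot be told apart.

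The 4 genes that passed the test with siRNA1 are shown first by the 250 bases before their RefSeq start sites (GRCm38.p6, 5′ to 3′ on the gene's strand). Capitals mark the letters TGGGAA, the core of the sequence bound by RBPJ, or TGACG, a half-site of the sequence bound by CREB, a partner of p300 and CBP, on either strand. For *Rbpj* the first of its start sites is shown.
Mamld1, chrX:71050006-71050255, strand plus: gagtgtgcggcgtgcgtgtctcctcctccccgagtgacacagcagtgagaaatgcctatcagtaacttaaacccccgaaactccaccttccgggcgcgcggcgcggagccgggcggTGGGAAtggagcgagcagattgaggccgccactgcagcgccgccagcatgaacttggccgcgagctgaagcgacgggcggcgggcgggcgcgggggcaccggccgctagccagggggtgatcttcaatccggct
Maml1, chr11:50292337-50292586, strand minus: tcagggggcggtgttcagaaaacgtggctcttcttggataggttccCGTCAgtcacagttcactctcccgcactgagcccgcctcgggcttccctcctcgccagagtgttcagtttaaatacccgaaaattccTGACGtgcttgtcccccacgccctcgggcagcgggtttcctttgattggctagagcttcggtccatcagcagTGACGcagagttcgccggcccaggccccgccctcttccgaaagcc
Rbpj, chr5:53590096-53590345, strand plus: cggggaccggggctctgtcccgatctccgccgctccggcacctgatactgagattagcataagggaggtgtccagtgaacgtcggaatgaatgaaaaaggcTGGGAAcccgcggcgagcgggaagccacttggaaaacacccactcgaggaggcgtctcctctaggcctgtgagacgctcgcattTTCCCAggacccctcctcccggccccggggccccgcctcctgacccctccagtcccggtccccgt
Ep300, chr15:81585964-81586213, strand plus: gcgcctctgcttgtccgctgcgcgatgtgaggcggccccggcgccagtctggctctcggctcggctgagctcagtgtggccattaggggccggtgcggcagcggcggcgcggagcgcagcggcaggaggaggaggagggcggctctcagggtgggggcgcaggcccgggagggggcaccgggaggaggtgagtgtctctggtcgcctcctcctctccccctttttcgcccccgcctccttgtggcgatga
The *Mamld1* window held TGGGAA once, starting 134 bases before the start site, and as part of the longer GTGGGAA. The *Rbpj* window held TGGGAA on both strands, 149 and 65 bases before the start site. The *Maml1* window held TGACG 3 times, and the *Ep300* window held neither. Among all 32851 promoters of the same length, 21.6% held TGGGAA, 5.42% GTGGGAA, and 17.8% TGACG. The sequence bound by the steroidogenic factor NR5A1, searched as AAGGTCA on both strands, was in 4.08% of all promoters and in none of these windows. The paper cites earlier work in which NR5A1 bound a putative site upstream of *Mamld1* and activated the gene. That site contains the letters AAGGTCA. Bases beyond the 250 shown were not searched, so the absence from the *Mamld1* window does not bear on a site farther upstream. The matches in these windows describe letters, not bound sites.

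*Mamld1*, the gene targeted by both siRNAs, fell with both. Levels are percentages of the mean of the control arrays on the log2 scale. *Mamld1* was at 88.0%, 85.2%, 119%, and 112% on control arrays 1–4. It was at 46.6%, 77.0%, 48.1%, and 44.1% on siRNA1 arrays 1–4, and at 45.3%, 68.6%, and 65.5% on siRNA2 arrays 1–3. All 7 siRNA arrays lay below all 4 control arrays, and siRNA1 array 2 was the closest to them. The means were 101% ± 17.1 (control, SD, n = 4), 54.0% ± 15.4 (siRNA1, n = 4), and 59.8% ± 12.6 (siRNA2, n = 3). *Mamld1* fell by 0.93 on the log2 scale with siRNA1 (SE 0.20, limma adjusted p = 0.00571) and by 0.77 with siRNA2 (SE 0.22, limma adjusted p = 0.0309). The exact permutation p was 0.0286 for both (two-sided), the smallest that 4 arrays against 4 or 3 can give. The siRNA1 minus siRNA2 difference was -0.16 (95% confidence interval -0.64 to 0.31, limma adjusted p = 0.640).

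Within slides 1, 2, and 3, the *Mamld1* log2 difference from control was -0.89, -0.97, and -1.34 with siRNA1. It was -0.93, -0.80, and -0.77 with siRNA2. Every slide therefore showed *Mamld1* below its own control arrays. Leaving out 1 array ended the siRNA2 call for control array 3 (limma adjusted p = 0.0792) and control array 4 (0.0753), as well as for siRNA2 arrays 1 (0.119) and 3 (0.0516). The *Mamld1* signal was dim, at 14.3–38.1 intensity units over all arrays, and normexp, another background correction, turned the differences to 0.65 (siRNA1) and 0.44 (siRNA2), neither of which passed the test. The same correction with extreme local backgrounds replaced gave -0.41 with siRNA1 (limma adjusted p = 0.00511) and -0.21 with siRNA2 (0.219). The siRNA2 call was also lost when probes were not filtered on background (limma adjusted p = 0.0762).

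**Figure D1:**
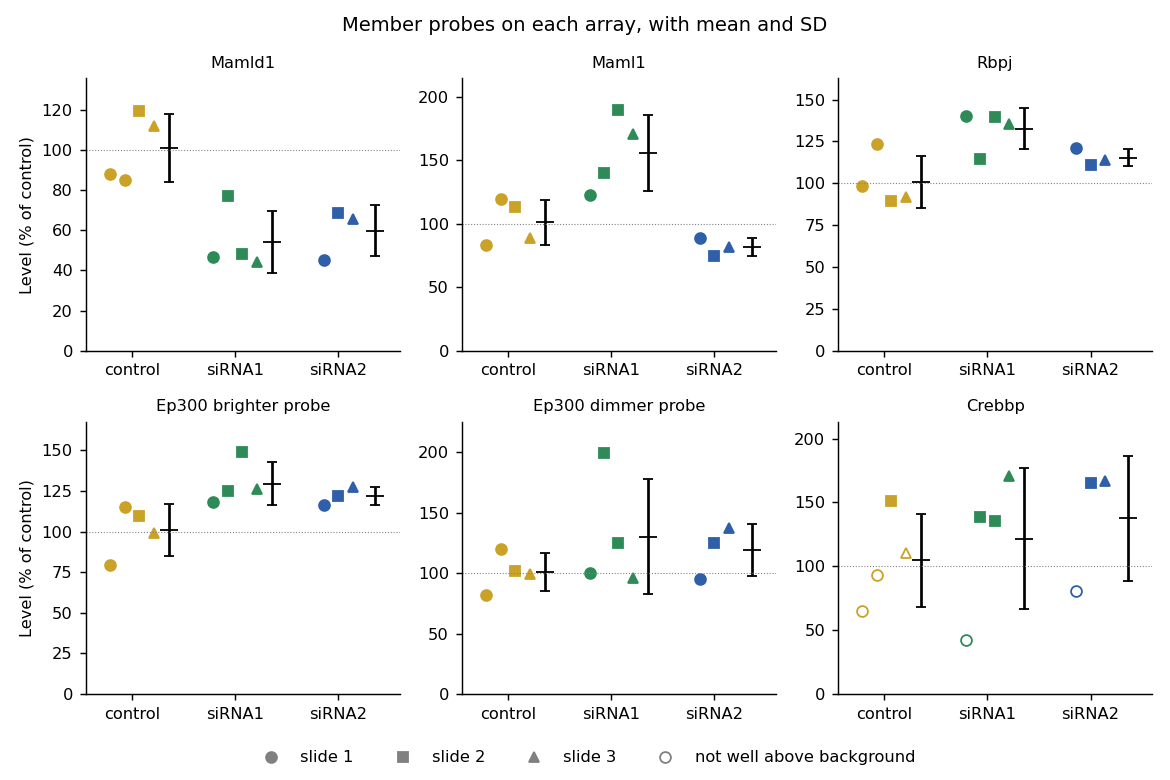
Level of each member probe other than *Maml3* on each array (y axis, percent of the control mean, and x axis, group). Slides are marker shapes, open markers are probes not well above background, and mean ± SD is in black. *Mamld1* lay below the control arrays on all 7 siRNA arrays, and *Maml1* lay above them on all 4 siRNA1 arrays only.

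Among the other Mastermind genes, *Maml1*, the widely expressed Notch coactivator, was higher with siRNA1 alone, and this difference between the siRNAs was itself significant. *Maml1* was at 83.0%, 119%, 114%, and 88.9% of control on control arrays 1–4. It was at 123%, 140%, 189%, and 171% on siRNA1 arrays 1–4, and at 88.9%, 74.7%, and 82.0% on siRNA2 arrays 1–3. All siRNA1 arrays lay above all others, while siRNA2 array 1 lay within the control range and arrays 2 and 3 just below it. *Maml1* rose by 0.62 on the log2 scale with siRNA1, 1.54-fold (SE 0.16, limma adjusted p = 0.0137; exact permutation p = 0.0286). With siRNA2 the difference was -0.29 (95% confidence interval -0.67 to 0.083, limma adjusted p = 0.292). The siRNA1 minus siRNA2 difference was 0.91 (SE 0.17, limma adjusted p = 0.00270; exact permutation p = 0.0286). It was 0.47, 1.12, and 1.06 within slides 1, 2, and 3. Leaving out any single array kept the *Maml1* call with siRNA1, with limma adjusted p-values of 0.00787 to 0.0433. The call was lost under normexp (limma adjusted p = 0.256) and by the methods' t-test (adjusted p = 0.0664). Normexp also ended the call between the siRNAs (limma adjusted p = 0.772).

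*Maml3*, which encodes the third Notch coactivator of the family, was not well above background on any array, at 1.77–5.52 intensity units, where the lowest signal above background was 6.94–8.90. Its values were 86.5–117% (control), 66.2–224% (siRNA1), and 77.8–175% (siRNA2) and have no order.

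*Rbpj* was higher with siRNA1, by less than *Maml1*. It was at 98.7%, 123%, 89.4%, and 91.9% of control on control arrays 1–4. It was at 140.4%, 114%, 139.9%, and 136% on siRNA1 arrays 1–4, and at 121%, 111%, and 114% on siRNA2 arrays 1–3. Control array 2 lay above siRNA1 array 2 and all 3 siRNA2 arrays, so the groups overlapped in both comparisons. *Rbpj* rose by 0.40 on the log2 scale with siRNA1, 1.32-fold (SE 0.11, limma adjusted p = 0.0220; exact permutation p = 0.0571). With siRNA2 the difference was 0.20 (95% confidence interval -0.07 to 0.47, limma adjusted p = 0.307). The siRNA1 minus siRNA2 difference was 0.20 (95% confidence interval -0.07 to 0.47, limma adjusted p = 0.280), so a difference between the siRNAs was not shown. Within slides 1, 2, and 3, *Rbpj* differed from control by 0.35, 0.50, and 0.56 (log2) with siRNA1 and by 0.13, 0.31, and 0.31 with siRNA2. Leaving out 1 array ended the *Rbpj* call for control arrays 3 (limma adjusted p = 0.0654) and 4 (0.0643) and for siRNA1 arrays 1 (0.0578), 3 (0.0645), and 4 (0.0512).

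*Rbpj* ran opposite to *Mamld1* over the arrays. Pearson's r between their log2 levels was -0.89 over 11 arrays and -0.79 after the group means were removed. SiRNA1 array 2, with the most *Mamld1* of its group, had the least *Rbpj* of its group, and control array 3, with the most *Mamld1* of all, had the least *Rbpj* of all. Both values of an array share its labeling, scaling, and slide, and these correlations are descriptions. For *Maml1*, r with *Mamld1* was -0.39 (-0.26 within groups). Among 16997 other tested probes with a gene symbol, the median r with *Mamld1* was 0.16. Of these, 42 had an r above 0.9, and the most opposite was at -0.96. The share as opposite as *Rbpj* was not counted, so the relation is not shown to be particular to *Rbpj*.

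**Figure D2:**
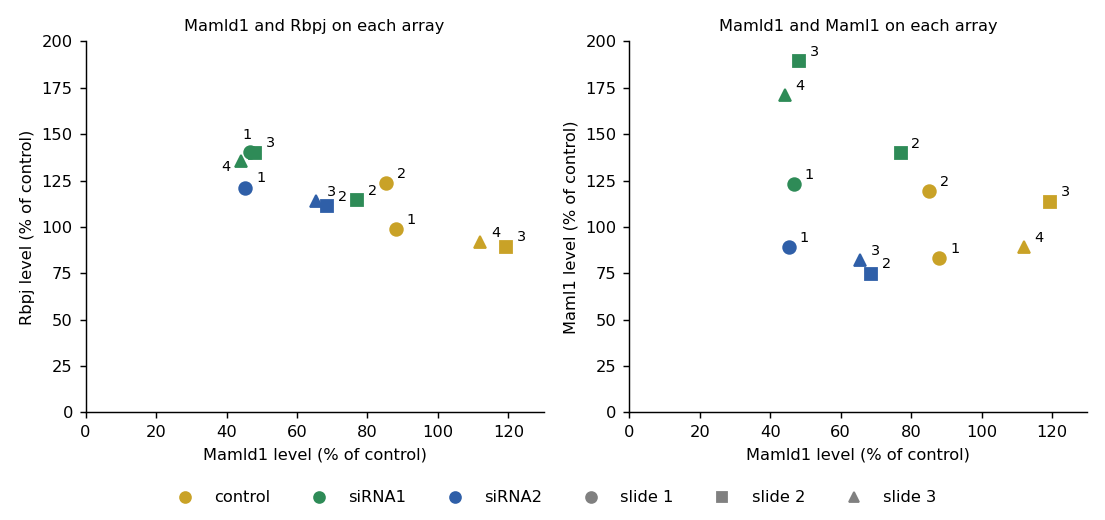
*Rbpj* (left) and *Maml1* (right) levels against the *Mamld1* level, each in percent of the control mean; points are arrays with their replicate number, colors are groups, and shapes are slides. *Rbpj* was lower where *Mamld1* was higher (r = -0.89), whereas the *Maml1* values of the siRNA1 and siRNA2 arrays separated at similar *Mamld1* levels.

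*Ep300*, which encodes the acetyltransferase p300, had 2 probes. The brighter probe was at 79.5%, 115%, 109.7%, and 99.3% of control on control arrays 1–4. It was at 118%, 125%, 149%, and 126% on siRNA1 arrays 1–4, and at 116%, 122%, and 127% on siRNA2 arrays 1–3. Every siRNA array lay above every control array on this probe. It rose by 0.37 on the log2 scale with siRNA1, 1.29-fold (SE 0.12, limma adjusted p = 0.0435; exact permutation p = 0.0286). With siRNA2 the difference was 0.28 (95% confidence interval -0.0036 to 0.57, limma adjusted p = 0.170), and between the siRNAs it was 0.084 (-0.20 to 0.37). In a fit blocked by slide, the limma adjusted p with siRNA1 was 0.0632, and 15 of 23 alternatives ended this call, 8 of them by leaving out 1 array. These were control arrays 1 (limma adjusted p = 0.0978) and 4 (0.0883), siRNA1 arrays 2 (0.0644), 3 (0.127), and 4 (0.0724), and siRNA2 arrays 1 (0.0529), 2 (0.0614), and 3 (0.0546).

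The dimmer *Ep300* probe did not pass the test. It was at 82.2–120.3% (control), 96.0–199% (siRNA1), and 95.4–138% (siRNA2), and the groups overlapped. Its log2 difference was 0.32 with siRNA1 (95% confidence interval -0.17 to 0.80, limma adjusted p = 0.330) and 0.24 with siRNA2 (-0.29 to 0.76, limma adjusted p = 0.584). SiRNA1 array 2 set the top of its range, at 199%.

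*Crebbp*, which encodes CBP, was near background. Of the arrays, 1 of 4 (control), 3 of 4 (siRNA1), and 2 of 3 (siRNA2) measured it well above background. Its values were 64.6–151% (control), 42.0–170.5% (siRNA1), and 80.9–167% (siRNA2) of control. The lowest array of each group lay on slide 1, where no array measured it above background.

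Counted together, 4 of 5 tested member probes passed an adjusted p of 0.05 with siRNA1 (limma), 3 higher and 1 lower, where 27% of all 24250 tested probes did (11.8% higher and 15.2% lower). With siRNA2, 1 of 5 passed, *Mamld1*, against 18.4% of all tested probes (7.7% higher and 10.7% lower). Between the siRNAs 1 of 5 passed, *Maml1*, higher with siRNA1, against 23.5% (11.7% higher and 11.8% lower). Beyond *Mamld1* itself, the called members were thus *Maml1*, *Rbpj*, and the brighter *Ep300* probe, all with siRNA1. The siRNA1 count was 2 without control array 4, siRNA1 array 3, or siRNA1 array 4. The siRNA2 count was 0 when any of control arrays 3 and 4 and siRNA2 arrays 1 and 3 was left out. The median log2 difference of the 5 probes was 0.37 with siRNA1 and 0.20 with siRNA2, beside -0.048 and -0.0082 over all tested probes. The groups did not overlap for 3 of 5 probes with siRNA1 (29.1% of all probes) and 2 of 5 with siRNA2 (28%), nor for 1 of 5 between the siRNAs (31.3%). On all arrays without a block, no member changed 2-fold or more, although *Mamld1* with siRNA1 was at -1.05 on the log2 scale in the fit blocked by slide (limma adjusted p = 0.00102) and at -1.11 without siRNA1 array 2. A change of that size with the same adjusted p was reached by 2.99% of all probes with siRNA1, 2.25% with siRNA2, and 3.36% between them. The siRNA1 and siRNA2 comparisons share the control arrays.

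**Figure D3:**
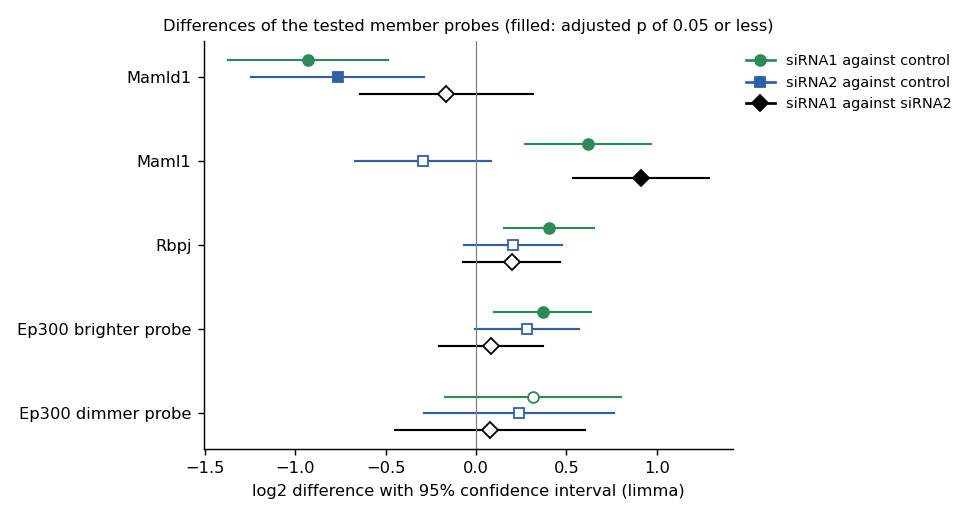
Log2 difference (x axis) with its 95% confidence interval from limma for each tested member probe (y axis) in the 3 comparisons; filled markers passed an adjusted p of 0.05. *Mamld1* was lower with both siRNAs (-0.93 and -0.77), and the *Maml1* intervals with siRNA1 (0.27 to 0.97) and siRNA2 (-0.67 to 0.083) did not overlap.

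The other genes of the pathway were taken as 6 lists of 97 genes, of which 78 had a tested probe. Each gene was counted by its brightest tested probe. With siRNA1, 27 of 78 passed the test, 15 higher and 12 lower, which is 34.6% beside 29.3% of all 11818 genes tested (10.6% higher and 18.7% lower). With siRNA2, 16 passed, 9 higher and 7 lower, which is 20.5% beside 20.2% (8.02% higher and 12.2% lower). Thus the siRNA2 share was near that of all genes. Both counts include *Hey1*, which was tested only through its siRNA arrays. Between the siRNAs, 17 of the 78 genes differed, where 26.3% of all genes did. Blocking by slide, 34 passed with siRNA1 and 22 with siRNA2, where 8670 and 6172 of all 24250 tested probes did. Normexp left 0 and 1, where it left 381 and 123 of all tested probes. With extreme local backgrounds replaced, it left 31 and 16, where it left 7453 and 3710 of all tested probes.

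Of the Notch receptors, ligands, and processing genes, 7 of 20 (35%) passed with siRNA1, 6 of them lower. With siRNA2, 2 of 20 (10%) passed, both lower. Among all genes tested, 29.3% passed with siRNA1 (18.7% lower) and 20.2% with siRNA2 (12.2% lower). *Notch4*, a receptor, fell by 0.36 on the log2 scale with siRNA1 and by 0.48 with siRNA2 (limma adjusted p = 0.0401 and 0.0210). *Jag1*, a ligand, fell by 0.57 with siRNA2 (limma adjusted p = 0.00936) and differed by -0.32 with siRNA1 (0.0658). The ligand gene *Dll3* fell by 0.55 with siRNA1 (limma adjusted p = 0.00757) and differed by -0.40 with siRNA2 (0.0670). *Aph1c*, which encodes a subunit of the γ-secretase that cleaves Notch, fell by 0.64 with siRNA1 (limma adjusted p = 0.000881) and differed by -0.21 with siRNA2. *Pofut1*, which encodes a fucosyltransferase of Notch receptors, fell by 0.53 with siRNA1 (limma adjusted p = 0.0188). Leaving out 1 array ended the *Notch4* call with siRNA1 for control arrays 1, 3, and 4 and siRNA1 arrays 1, 3, and 4 (limma adjusted p = 0.0776 to 0.115), and with siRNA2 for control array 4 (0.0547) and siRNA2 array 2 (0.102). The *Pofut1* call was lost without control array 3 (limma adjusted p = 0.0561) or siRNA1 array 1 (0.0521). Blocking by slide, *Jag1* also passed with siRNA1 (limma adjusted p = 0.0282) and *Dll3* with siRNA2 (0.0233). Normexp turned *Notch4* to 0.13, *Dll3* to 0.058, and *Aph1c* to 0.47 with siRNA1, none of which passed the test. The receptor *Notch1* was above background on no array.

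Of the genes listed as Notch targets, 4 of 8 passed with siRNA1 and 3 of 8 with siRNA2, in both directions, beside 29.3% and 20.2% of all genes. Whether Notch induces these genes in MLTCs was not tested, and *Hes6*, an antagonist of *Hes1*, is in both counts. *Hey1* is counted in both, although it was tested only through its siRNA arrays and had to differ. *Hey1*, a transcriptional repressor induced by Notch, was at 68.9–125% of control on control arrays, 195–245% on siRNA1 arrays, and 239–300.1% on siRNA2 arrays. No siRNA array overlapped the control arrays, but none of the control arrays measured *Hey1* well above background. Set against the lowest signal above background on the control arrays, *Hey1* stood 1.32-fold higher on siRNA1 arrays and 1.61-fold higher on siRNA2 arrays. These folds hold for this background subtraction only, and the filter that let *Hey1* in favored a difference. The limma adjusted p-values, 0.000851 and 0.000450, rest on control values below background and do not test these folds. Under a normexp correction with extreme local backgrounds replaced, *Hey1* was at -0.14 with siRNA1 and at 0.051 with siRNA2 (limma adjusted p = 0.848), and plain normexp ended both calls (0.446 and 0.738). *Hes1*, the best known Notch target, rose by 0.54 with siRNA1 (limma adjusted p = 0.00605) and differed by 0.12 with siRNA2 (0.599). The siRNAs differed by 0.42 in *Hes1* (limma adjusted p = 0.0352). Its signal was dim, at 11.8–34.3 intensity units over all arrays. Normexp with extreme local backgrounds replaced turned *Hes1* to -0.097 with siRNA1, and plain normexp ended this call (limma adjusted p = 0.446). *Hes6* fell by 0.43 with siRNA1 and by 0.61 with siRNA2 (limma adjusted p = 0.00654 and 0.00181). On its other tested probe the differences were -0.30 and -0.55 (limma adjusted p = 0.0630 and 0.00765). *Id1*, an inhibitor of helix-loop-helix factors, fell by 0.55 with siRNA1 (limma adjusted p = 0.00175). *Cdkn1a*, a cell cycle inhibitor, fell by 0.38 with siRNA2 (limma adjusted p = 0.0475), a call that only the fits without control array 2 or without siRNA2 array 1 kept among those leaving out 1 array (0.0510 to 0.199 in the others).

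Of the RBPJ corepressors and the paralog *Rbpjl*, 4 of 19 (21.1%) passed with siRNA1 and 3 of 19 (15.8%) with siRNA2. Both shares were below those of all genes (29.3% and 20.2%). *Fhl1* rose by 0.49 with siRNA1 and by 0.52 with siRNA2 (limma adjusted p = 0.00129 and 0.00206). *Kdm1a*, a histone demethylase, rose by 0.42 with siRNA1 (limma adjusted p = 0.00287), and *Tle3*, a Groucho-type corepressor, fell by 0.53 (0.000744). Blocking by slide, *Tle3* also passed with siRNA2, at -0.25 (limma adjusted p = 0.0453). *L3mbtl3*, which binds RBPJ, fell by 0.65 with siRNA2 on its brightest probe (limma adjusted p = 0.00792), while its other tested probe differed by 0.45 (0.270). Normexp turned the brightest probe to 0.35, which did not pass the test. *Sap30*, a subunit of the Sin3 histone deacetylase complex, fell by 0.83 with siRNA2 (limma adjusted p = 0.0187), a call lost without control array 1 (0.0501), siRNA2 array 2 (0.0663), or siRNA2 array 3 (0.0798).

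Of the cofactors and turnover genes of the Notch intracellular domain, 6 of 16 (37.5%) passed with siRNA1 and 5 of 16 (31.2%) with siRNA2. The shares of all genes were 29.3% and 20.2%. *Cdk8*, the Mediator kinase that phosphorylates the Notch intracellular domain, went opposite ways. It was at 92.9–111% of control on control arrays, 125–154% on siRNA1 arrays, and 56.5–66.7% on siRNA2 arrays, with no overlap among the 3 groups. *Cdk8* rose by 0.49 with siRNA1 and fell by 0.68 with siRNA2, and the siRNAs differed by 1.17 (limma adjusted p = 0.00422, 0.00127, and 2.81e-05). Its dimmer probe differed by 0.40 and -0.13 (limma adjusted p = 0.0741 and 0.664). *Dtx4*, a Deltex ubiquitin ligase, rose with both siRNAs, by 0.65 and 0.92 (limma adjusted p = 0.000332 and 8.42e-05). *Med12*, which encodes a Mediator subunit that activates CDK8, rose by 0.41 and 0.53 (limma adjusted p = 0.0296 and 0.0172). *Aak1* rose on its brightest probe by 0.35 and 0.76 (limma adjusted p = 0.0273 and 0.000804), but its other 2 tested probes did not pass with either siRNA, and with siRNA2 one of them lay in the opposite direction, at -0.53 (0.0589). With siRNA1, the *Med12* call was lost when any of control arrays 1, 2, and 3 and siRNA1 arrays 1, 2, and 4 was left out (limma adjusted p = 0.0511 to 0.0794), and the *Aak1* call for control arrays 1 and 2 and siRNA1 arrays 3 and 4 (0.0508 to 0.0754). With siRNA2, the *Med12* call was lost without siRNA2 array 3 (limma adjusted p = 0.0729).

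Of the partners of p300 and CBP, 5 of 12 (41.7%) passed with siRNA1 and 3 of 12 (25%) with siRNA2, all higher. Over all genes, 29.3% passed with siRNA1 (10.6% higher) and 20.2% with siRNA2 (8.02% higher). The CITED proteins bind p300 and CBP, and *Cited2* competes there with hypoxia-inducible factor. *Cited1* was at 87.1–113% of control on control arrays, 172–231% on siRNA1 arrays, and 83.2–108% on siRNA2 arrays. Thus *Cited1* rose with siRNA1 by 1.01 on the log2 scale (limma adjusted p = 0.000235), differed by -0.08 with siRNA2 (0.790), and differed between the siRNAs (0.000269). *Cited2* rose with both siRNAs, by 0.93 and 1.06 (limma adjusted p = 0.000192 and 0.000208), as did its other 2 tested probes. *Cited4* rose by 1.06 and 0.75 (limma adjusted p = 0.00112 and 0.0169). *Atf1*, a CREB family factor, rose by 0.39 and 0.77 (limma adjusted p = 0.0147 and 0.000636). Of 3 other factors that MAML1 coactivates, 1 (33.3%) passed with siRNA1 and 0 with siRNA2. This was *Trp53*, which fell by 0.42 with siRNA1 (limma adjusted p = 0.0347), while its other tested probe differed by -0.30 (0.0982). With siRNA1, *Ctnnb1* differed by 0.31 and *Mef2c* by -0.013, and neither passed (limma adjusted p = 0.0698 and 0.966). The *Cited4* call with siRNA2 was lost without siRNA2 array 3 (limma adjusted p = 0.0664), and the *Trp53* call without any 1 of control arrays 1, 3, and 4 and siRNA1 arrays 1, 3, and 4 (0.0504 to 0.104).

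**Figure D4:**
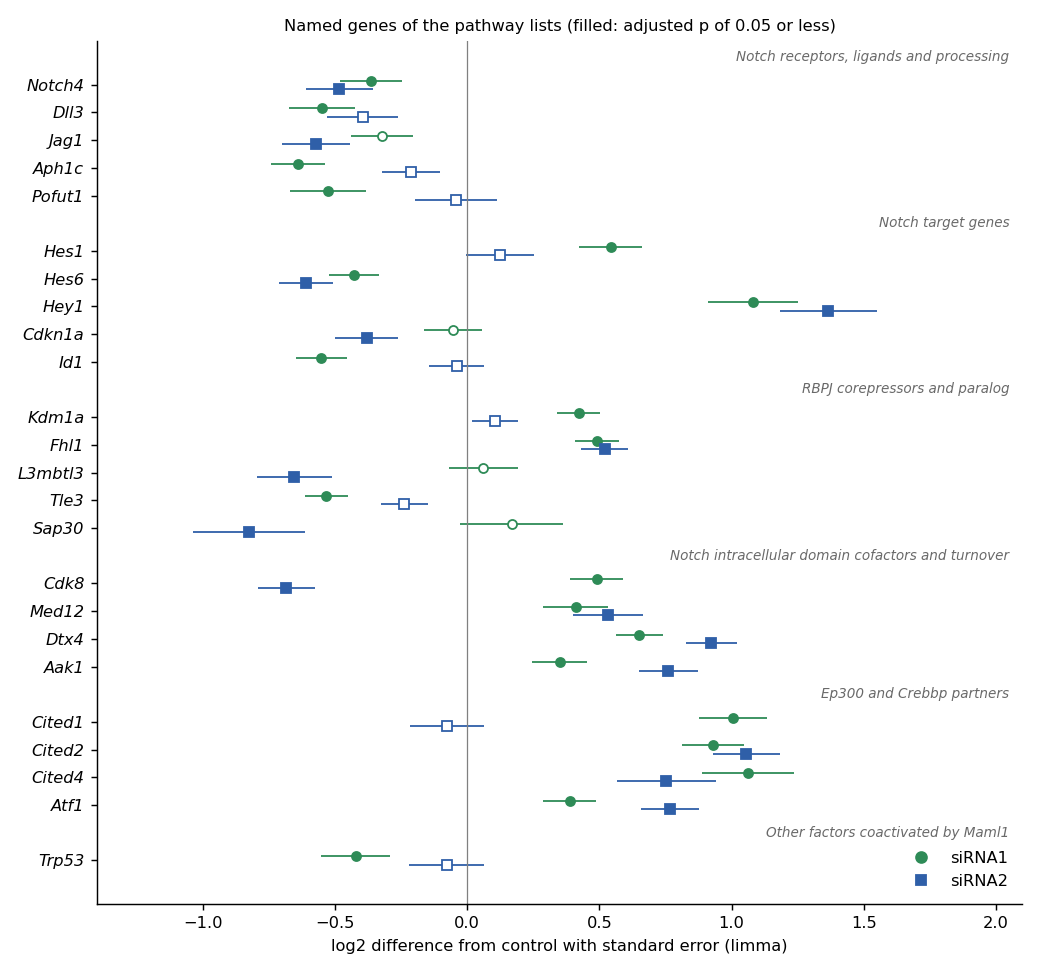
Log2 difference from control with its standard error from limma (x axis) for the named genes of the pathway lists (y axis), with siRNA1 as circles and siRNA2 as squares; filled markers passed an adjusted p of 0.05. *Cited2*, *Cited4*, and *Dtx4* were higher with both siRNAs, and *Cdk8* was higher with siRNA1 (0.49) and lower with siRNA2 (-0.68); *Hey1* was not well above background on control arrays.

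Tested probes with a profile much like that of *Mamld1* over the 11 arrays belonged to *Parp3* (r = 0.96), *Egfl7* (0.95), *Fdft1* (0.95), and *Hdac8* (0.95). Those most opposite belonged to *Nmt2* (-0.96), *Rnps1* (-0.96), and *Ifih1* (-0.95). Within groups, r was 0.85–0.89 for the first set and -0.94 to -0.87 for the second. The r of these probes ranks likeness only, since all probes share the arrays.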

How the data were processed

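The signal intensities (gProcessedSignal) were deposited per array and, per the file headers, were made with Agilent Feature Extraction (version 9.5.1.1) with background subtraction and spatial detrending, not normalized between arrays. Cyanine-3 labeling used 300 ng of RNA per array. The deposited median intensities of spots and local backgrounds served the normexp alternatives. A further deposited table of group averages and comparisons made by the authors was not used.

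Outlier-marked and control spots were left out. Intensities were converted to log2, each array's 75th percentile was subtracted, and spots of a probe were averaged. Testing required a signal well above background on all arrays of 1 or more groups. limma (version 3.58.1, R version 4.3.3) fitted the 11 arrays in 3 groups, with Benjamini-Hochberg adjustment over 24250 probes. Two-sided exact permutation tests compared single probes. The number of arrays limits the precision. Named genes were all member probes, pathway genes called with either siRNA (up to 3 per list and siRNA), and the 5 probes most like and 3 least like *Mamld1*, of which 1 is not reported here. The members and lists were chosen with earlier results of these data known. Tested on simulated data with 200 of 24170 probes changed, the fit called 78% (siRNA1) and 76% (siRNA2) of those changed by 0.8 on the log2 scale. The simulated noise had no slide effect, and far fewer probes were changed than were called in the data. These shares check the fit and do not give its power for the members.

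Alternatives were normexp (offset 50), normexp with local backgrounds over 3 times the array median replaced, quantile normalization, median scaling, no filter, outlier-marked spots kept, a filter requiring all arrays, slide or replicate number as a block, the methods' t-test, a 2-fold limit, the mean over both *Ep300* probes, and leaving out each array. The siRNA sequences are not shown here.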

Additional observations from a re-analysis of the deposited data

Results flagged for a closer look

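In 14 groups of 4 arrays, 4 values stood apart by Dixon's test, which by chance marks about 1 in 20 groups. *Mamld1* on siRNA1 array 2 (77.0% of control) lay above the other siRNA1 arrays, and *Rbpj* on the same array (114%) lay below them. Without this array, the log2 difference from control was -1.11 for *Mamld1* and 0.47 for *Rbpj*. *Maml3* on siRNA1 array 2 (224%) and *Crebbp* on siRNA1 array 1 (42.0%) stood apart at signals not well above background. *Maml1* differed between the siRNAs by 0.91 on the log2 scale (limma adjusted p = 0.00270), with all 4 siRNA1 arrays above all 3 siRNA2 arrays.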

How the results depend on the processing

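Of 50 log2 differences recomputed under up to 24 alternatives, 37 never turned direction. Normexp, which shifted the median of all probes by 0.26 (siRNA1) and 0.18 (siRNA2), turned *Mamld1* to 0.65 with siRNA1, 0.44 with siRNA2, and 0.21 between the siRNAs, *Maml1* to 0.084 with siRNA2, *Notch4* to 0.13, *Dll3* to 0.058, and *Aph1c* to 0.47 with siRNA1, and *L3mbtl3* to 0.35 with siRNA2. It left 0 of 5 member probes called in each of the 3 comparisons, and 0 pathway genes called with siRNA1 and 1 with siRNA2. Over all 24250 tested probes, it left 381 (siRNA1), 123 (siRNA2), and 81 (between the siRNAs) called, so the loss was not particular to these genes. With extreme local backgrounds replaced, *Mamld1* was -0.41 (siRNA1) and -0.21 (siRNA2, no longer called, adjusted p = 0.219) and 0 members were called with siRNA2, the dimmer *Ep300* probe turned to -0.12 (siRNA1), -0.024 (siRNA2), and -0.093 (between them), and with siRNA1 *Hes1* turned to -0.097 and *Hey1* to -0.14. The 2 normexp settings differ only in this replacement. With it, 7453 (siRNA1), 3710 (siRNA2), and 5335 (between the siRNAs) of all tested probes were called. So were 31 (siRNA1) and 16 (siRNA2) pathway genes. The cause of the turns that remained was not tested. Without a filter on dim probes, *Mamld1* with siRNA2 stayed at -0.77 but at an adjusted p of 0.0762 (limma), and 0 members were called with siRNA2. The adjusted methods' t-test left *Mamld1* with siRNA2 at -0.77 without a call. It called 1 member probe with siRNA1 (*Mamld1*), 0 with siRNA2, and 9 pathway genes with siRNA2. Over all tested probes it called 5619 (siRNA1) and 2854 (siRNA2). *Maml1* and *Rbpj* with siRNA1 were not called by this t-test (adjusted p = 0.0664 and 0.0714). A 2-fold limit called 0 members in each comparison, and 3 (siRNA1) and 2 (siRNA2) pathway genes. These were *Hey1*, *Cited1*, and *Cited4* (siRNA1) and *Hey1* and *Cited2* (siRNA2). The *Hey1* fold rests on control values below background. Of all tested probes, 2.99% (siRNA1) and 2.25% (siRNA2) passed this limit.

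Leaving out 1 array gave 2 to 4 called member probes with siRNA1, 0 to 1 with siRNA2, and 1 between the siRNAs, 21 to 27 pathway genes with siRNA1 and 12 to 18 with siRNA2, and *Mamld1* differences of -1.11 to -0.84 (siRNA1) and -0.88 to -0.58 (siRNA2). For the dimmer *Ep300* probe between the siRNAs, the value was -0.15 to 0.20, with -0.15 without siRNA1 array 2 and -0.075 without siRNA2 array 1. Of 10 pairs of arrays with the same number in different groups, 7 had deviations correlated above 0.1 (highest r 0.53). The other 3 were at 0.1 or less (lowest r -0.18), so the numbers were not taken to pair the samples. Arrays of different groups had a median r of 0.30 on the same slide and -0.12 on different slides. The main fit has no block, so this shared spread remains in its error. With the replicate block 4 member probes were called with siRNA1 and 1 with siRNA2, 8397 all probes in place of 6553 with siRNA1. With slide as a block, 8670 all probes were called with siRNA1. Signals near background limit *Crebbp*, *Maml3*, and *Mamld1*, and among the pathway genes *Hes1* and *Hey1*.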
